A study of Drosophila melanogaster with 18 samples.

Results

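The 10 nicotinic acetylcholine receptor subunits of Drosophila, nAChRalpha1 to nAChRalpha7 and nAChRbeta1 to nAChRbeta3, were followed by their FlyBase symbols in *tud* mutant flies and their controls, in both brain and ovary. They are 10 of the 17288 genes listed, and all 10 were found. In *tud* mutant brains nAChRalpha5 was 3.72-fold (female) and 3.92-fold (male) the control mean, and the related nAChRalpha7 was 2.30-fold and 2.59-fold the control mean. The subunit nAChRbeta3 went the other way, at 0.363-fold and 0.648-fold the control mean. In the ovary, nAChRalpha4 was listed at 30.7 to 42.3 FPKM and the other 9 subunits at less than 0.4 FPKM.

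Nicotinic receptors are pentameric channels that open when acetylcholine binds and let cations into the cell. Acetylcholine is the main excitatory transmitter of the insect brain, so these receptors carry fast synaptic excitation between central neurons, and they are the target of the neonicotinoid and spinosyn insecticides. Alpha subunits bear a pair of neighbouring cysteines at the binding site that beta subunits lack, and different mixtures of subunits give receptors with different pharmacology.

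RNA-seq was performed on *tud* mutant female brains, control female brains, *tud* mutant male brains, control male brains, *tud* mutant ovaries and control ovaries, with 3 libraries in each of these 6 groups. Mutant flies carried a second chromosome with tud1, bw and sp over the deficiency Df(2R)PurP133. Control flies carried the same tud1 chromosome over the CyO balancer, which bore a P[w+, hs-hid] insertion, so they were heterozygotes, although the authors also call them wild-type. All flies were y, w and young, all carried tud1, and brains were dissected by hand and pooled. Loss of Tud and the different partner chromosome therefore cannot be told apart, for nAChRalpha5, nAChRalpha6 and nAChRbeta3, which lie on the second chromosome themselves, as for the other subunits.

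Values were the authors' FPKM, the number of sequenced fragments scaled by transcript length and by library size, so that levels can be compared between genes. Their steps at low values gave about 5500000 to 15400000 fragments for a brain library and 21700000 to 30300000 for an ovary library, if the libraries were not rescaled. The gene *tud* was at 9.10 to 12.4 FPKM in mutant ovaries and 61.0 to 67.2 FPKM in control ovaries. In brains *tud* was at 15.3, 32.3 and 14.1 FPKM in mutant females, against 31.4, 26.03 and 23.9 FPKM in control females, and at 12.9 to 17.9 FPKM in mutant males, against 20.2 to 36.2 FPKM in control males. The library labelled mutant female brain replicate 2 thus lay above all control female libraries on the targeted gene, against its label, and results are also given without it. It was the highest of the 12 brain libraries for nAChRalpha1, nAChRalpha2 and nAChRbeta2 and the lowest for nAChRbeta3. Control male brain replicate 2 also stood apart, with a median correlation of 0.841 across genes with the other brain libraries, against 0.904 to 0.949 for the rest, and it had 378 FPKM of the male RNA roX2, against 11620 to 18620 FPKM in the other 5 male brain libraries. Nothing in the labels gives a batch, and nothing says that the 3 libraries of a group came from separate crosses, so p-values measure the spread between these libraries.

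The subunit genes differ widely in size, as annotated on the dm6 assembly. The group of nAChRalpha5 (FBgn0028875, chromosome 2L, 14040170 to 14094401), nAChRalpha6 (FBgn0032151, 2L, 9793317 to 9886250) and nAChRalpha7 (FBgn0086778, X, 19327075 to 19348447) is the one closest to the vertebrate alpha7 subunit. Their genes span 54.2, 92.9 and 21.4 kb. Of the other alpha subunits, nAChRalpha1 (FBgn0000036, 3R, 24393896 to 24457157), nAChRalpha3 (FBgn0015519, X, 8276200 to 8367169) and nAChRalpha4 (FBgn0266347, 3L, 23206669 to 23287448) span 63.3, 91.0 and 80.8 kb, and nAChRalpha2 (FBgn0000039, 3R, 24485428 to 24491147) spans 5.7 kb. The beta subunits are compact. The gene of nAChRbeta1 (FBgn0000038, 3L, 4429349 to 4435993) spans 6.6 kb, that of nAChRbeta2 (FBgn0004118, 3R, 24509228 to 24515106) spans 5.9 kb and that of nAChRbeta3 (FBgn0031261, 2L, 545129 to 547096) spans 2.0 kb.

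Of these genes, 3 share exonic bases with a gene on the opposite strand. All 1532 exonic bases of nAChRbeta3 lie within exons of Ets21C, nAChRalpha3 shares 251 bases with CG1636, and nAChRalpha4 shares 247 bases with lncRNA:CR46475. The libraries were stranded, but whether the counting used strand is not stated, so their values are less certain than the others. Ets21C itself was listed at 0.201 to 1.11 FPKM in the brain libraries.

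All 10 subunits were listed above 1 FPKM in all 12 brain libraries. The order of the levels began alike in the 4 brain groups, with nAChRalpha4, nAChRbeta1 and nAChRbeta2 on top. Mean nAChRalpha4 was 155 ± 36.6 FPKM in mutant female brains, 99.6 ± 43.6 in control female brains, 152.5 ± 2.01 in mutant male brains and 89.5 ± 67.2 in control male brains (SD, n = 3 each). In each of the 4 groups the ranges of nAChRalpha4 and nAChRbeta1 overlapped, so the order of these 2 is not settled by the libraries. By mean level, the 4th place was held by nAChRalpha5 in mutant females (mean 48.4 FPKM) and mutant males (58.6 FPKM), and by nAChRalpha2 in control females (42.4 FPKM) and control males (33.5 FPKM), where nAChRalpha5 came 7th. In mutant brains the ranges of nAChRalpha5 and nAChRalpha7, next in order, overlapped in both sexes, and in mutant females both also overlapped the range of nAChRalpha2 (33.1 to 60.4 FPKM), so their order there is not settled. At the low end, nAChRbeta3 was last in mutant females, mutant males and control males, and 6th in control females, where its range overlapped that of nAChRalpha5, next below it.

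**Figure D1:**
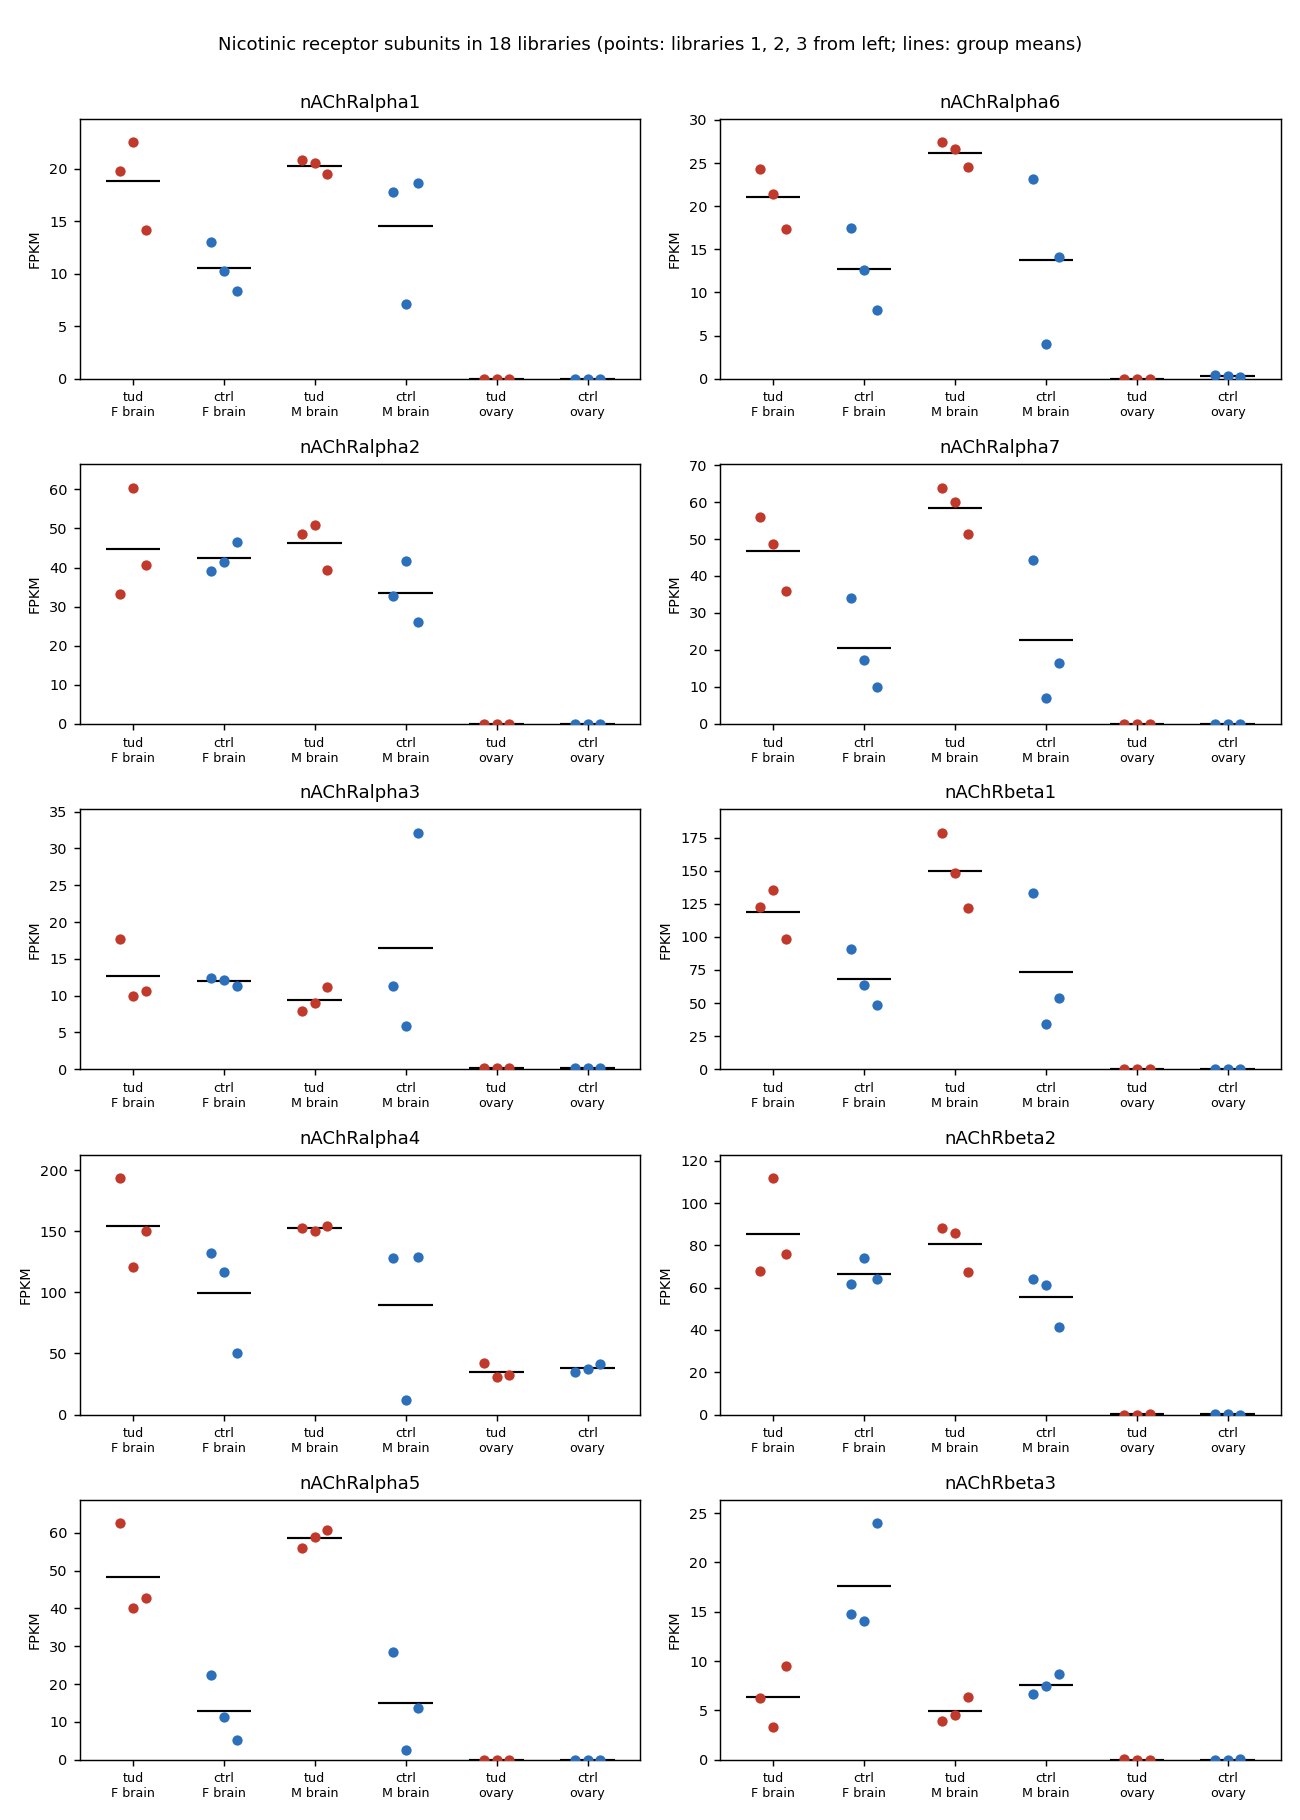
FPKM (vertical axis, from 0, a scale of its own for each subunit) of the 10 nicotinic subunits in the 18 libraries, with *tud* mutant (red) left of control (blue) in female brain, male brain and ovary; points are libraries and lines are group means of 3. All mutant points of nAChRalpha5 lie between 40.0 and 62.5 FPKM in brain and all control points at or below 28.6 FPKM, while nAChRalpha4 alone is well above 0 in ovary.

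Among the subunits of the alpha7-like group, nAChRalpha5 was measured at 62.5, 40.0 and 42.8 FPKM in mutant female brains, against 22.5, 11.3 and 5.18 FPKM in control female brains. In males it was at 56.0, 59.0 and 60.9 FPKM in mutant brains, against 28.6, 2.52 and 13.7 FPKM in control brains. All 6 mutant libraries lay above all 6 control libraries. The mutant males lay within 1.09-fold of each other, whereas the control males spread 11.3-fold, with replicate 2 lowest. On the log2(FPKM + 1) scale the change in brain, averaged over both sexes, was 2.18 (SE 0.47, 95% interval 1.14 to 3.22), and it passed limma's test across all genes (adjusted p = 0.0165).

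The subunit nAChRalpha7, which is needed in the giant fibre escape circuit of the fly, had 55.9, 48.8 and 36.0 FPKM in mutant female brains, against 33.9, 17.2 and 10.1 FPKM in control female brains. In males it had 63.9, 60.02 and 51.3 FPKM in mutant brains, against 44.3, 6.97 and 16.5 FPKM in control brains. Mutant and control libraries did not overlap in either sex, and control replicate 1 was the nearest to the mutants in both. Its change was 1.49 (SE 0.39, 95% interval 0.62 to 2.35, adjusted p = 0.0262 by limma).

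For nAChRalpha6, the subunit through which spinosyn insecticides act, values were 24.3, 21.4 and 17.4 FPKM in mutant female brains, against 17.5, 12.6 and 7.96 FPKM in control female brains. Male brains had 27.4, 26.6 and 24.6 FPKM in mutants and 23.1, 3.99 and 14.1 FPKM in controls. The groups met in females, where the lowest mutant and the highest control library were nearly level, and were apart in males. The change of 0.95 (SE 0.33, 95% interval 0.21 to 1.68) did not pass the threshold (adjusted p = 0.0587 by limma).

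Of the remaining alpha subunits, nAChRalpha1, a target of neonicotinoids, was at 19.8, 22.5 and 14.1 FPKM in mutant female brains, against 13.02, 10.2 and 8.32 FPKM in control female brains. Male brains had 20.8, 20.5 and 19.5 FPKM in mutants, against 17.8, 7.14 and 18.6 FPKM in controls. The groups were apart in both sexes, in males by less than 1 FPKM. Its change of 0.67 (SE 0.22, 95% interval 0.18 to 1.16) stood at the threshold itself (adjusted p = 0.04995 by limma). It fell short in several other analyses, with an adjusted p of 0.322 when the gene length trend of each library was removed and 0.219 when the trend with gene span was removed, a choice made after seeing the data.

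The subunit nAChRalpha4, which in flies affects sleep, had 194, 121 and 150.0 FPKM in mutant female brains, against 132, 116 and 50.1 FPKM in control female brains. Male brains had 153, 150.4 and 154 FPKM in mutants, against 128, 11.9 and 129 FPKM in controls. A single control library in each sex was far below the other 2, and the female groups overlapped. The change of 1.04 (SE 0.53, 95% interval −0.12 to 2.201) did not pass (adjusted p = 0.159 by limma), and without control male brain replicate 2 it was 0.48.

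Values of nAChRalpha2 and nAChRalpha3 differed least between genotypes. The subunit nAChRalpha2, whose gene lies beside those of nAChRalpha1 and nAChRbeta2, was at 33.1, 60.4 and 40.7 FPKM in mutant female brains, against 39.2, 41.4 and 46.6 FPKM in control female brains. In males it was at 48.5, 50.8 and 39.4 FPKM in mutant male brains, against 32.6, 41.7 and 26.2 FPKM in control male brains. For nAChRalpha3 mutant female brains had 17.7, 9.94 and 10.6 FPKM, against 12.4, 12.1 and 11.4 FPKM in control female brains, and mutant male brains had 7.96, 9.06 and 11.2 FPKM, against 11.4, 5.88 and 32.1 FPKM in control male brains. The groups overlapped in both sexes for both genes. The changes were 0.25 (SE 0.17, adjusted p = 0.270) and −0.21 (SE 0.32, adjusted p = 0.649 by limma). The sign of nAChRalpha3 rested on control male brain replicate 3, its highest library, and without it the change was 0.10.

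Of the beta subunits, nAChRbeta1, which enters many fly nicotinic receptors, had 122, 135 and 98.4 FPKM in mutant female brains, against 91.2, 63.9 and 48.4 FPKM in control female brains. In males it had 179, 148 and 122 FPKM in mutant brains, against 133, 34.04 and 53.5 FPKM in control brains. The female groups were apart, and in males control replicate 1 fell among the mutants. Its change was 1.03 (SE 0.30, 95% interval 0.37 to 1.69, adjusted p = 0.0328 by limma).

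The subunit nAChRbeta2 was at 67.8, 112 and 76.1 FPKM in mutant female brains, against 61.5, 74.1 and 64.1 FPKM in control female brains. In males it was at 88.0, 85.8 and 67.4 FPKM in mutant male brains, against 64.2, 61.4 and 41.6 FPKM in control male brains. Only the male groups were apart, and the change of 0.43 (SE 0.16, 95% interval 0.07 to 0.79) did not pass (adjusted p = 0.0740 by limma).

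The divergent subunit nAChRbeta3 was the member that fell. Mutant female brains had 6.27, 3.37 and 9.52 FPKM, against 14.8, 14.1 and 24.0 FPKM in control female brains, and mutant male brains had 3.93, 4.50 and 6.35 FPKM, against 6.64, 7.44 and 8.74 FPKM in control male brains. All mutant libraries lay below the controls of their sex, narrowly so in males. The change was −0.97 (SE 0.22, 95% interval −1.46 to −0.48, adjusted p = 0.0188 by limma). It is also the member with the shortest gene, with about 46.0 to 114.8 fragments in mutant female brains and 203 to 492 in control female brains.

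Together, 4 of the 10 subunits rose in *tud* mutant brains (nAChRalpha1, nAChRalpha5, nAChRalpha7 and nAChRbeta1) and 1 fell (nAChRbeta3), where 14.2% of all 10689 genes tested rose and 10.8% fell. The median change was 0.81 over the 10 subunits and 0.07 over all genes tested. With 10 members, these counts are a description and no test of the family was made. The number that passed was 5 without control male brain replicate 2, the library that stood apart, where 20.6% of all genes passed. The changes there were 1.75 for nAChRalpha5, 1.19 for nAChRalpha7, 0.81 for nAChRbeta1, 0.46 for nAChRalpha1 and −0.97 for nAChRbeta3. Without the library labelled mutant female brain replicate 2 the number was 2 (13.02% of all genes). They were nAChRalpha5 with a change of 2.24 (adjusted p = 0.0310) and nAChRbeta3 with −0.80 (adjusted p = 0.0306 by limma). In that fit nAChRalpha7 (1.47, adjusted p = 0.0522), nAChRbeta1 (0.98, adjusted p = 0.0671) and nAChRalpha1 (0.60, adjusted p = 0.103 by limma) did not pass. The number and the share of all genes called both moved as other libraries were left out, but not always in step. The number was 0 without mutant male brain replicate 1 (3.58% of all genes). It was 1 without mutant male brain replicate 2 (6.80%) or control female brain replicate 3 (4.79%), and 2 without control female brain replicate 2 (9.56%). It was 3 without mutant female brain replicate 1 (23.3%) or control male brain replicate 3 (13.8%). It was 4 without control female brain replicate 1 (18.8%) or mutant male brain replicate 3 (18.9%), and 5 without mutant female brain replicate 3 (18.3%). It was 7 when replicate 1 of the control males was left out (39.1%). Of the single subunits, nAChRalpha5 passed in 11 of these 12 fits, nAChRbeta3 in 9, nAChRalpha7 in 6, nAChRbeta1 in 5 and nAChRalpha1 in 4.

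**Figure D2:**
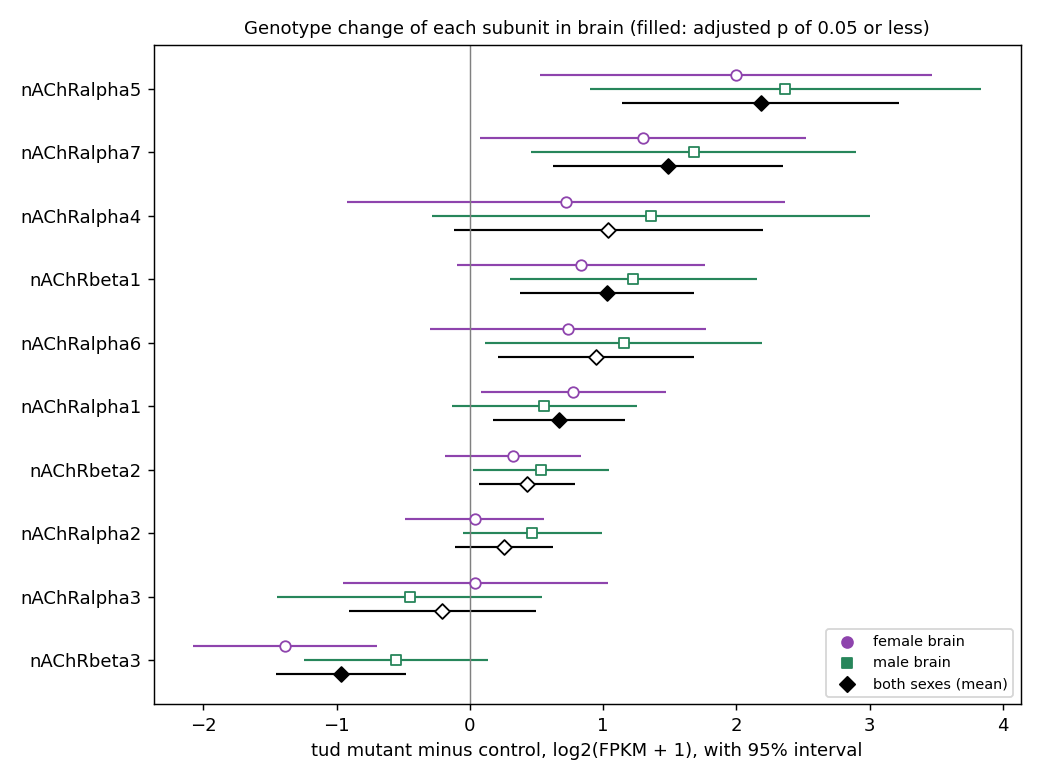
Genotype change of each subunit in brain, *tud* mutant minus control on the log2(FPKM + 1) scale (horizontal axis), for female brain (circles), male brain (squares) and the mean of both (diamonds), with 95% intervals from limma; filled symbols have an adjusted p of 0.05 or less. The mean change runs from 2.18 for nAChRalpha5 down to −0.97 for nAChRbeta3, and no symbol of a single sex is filled.

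Taken by sex, no subunit passed the threshold. In female brains limma called 0 of the 10 (0.337% of all genes), with 4 at an unadjusted p under 0.05, and the lowest adjusted p was 0.107 for nAChRbeta3 (change −1.38, SE 0.31). In male brains it also called 0 (1.23% of all genes), with 5 at an unadjusted p under 0.05, and the lowest adjusted p was 0.0705 for nAChRalpha5 (change 2.37, SE 0.67). Without control male brain replicate 1, the control library nearest to the mutants for several subunits, 4 subunits passed in males, with changes of 3.05 for nAChRalpha5, 2.33 for nAChRalpha7, 1.77 for nAChRbeta1 and 1.65 for nAChRalpha6, but 31.7% of all genes also passed in that fit, so the count says little about the subunits. By the libraries themselves, all mutants lay above all controls for 4 subunits in females (16.3% of all genes) and 6 in males (19.4%), with nAChRalpha1, nAChRalpha5 and nAChRalpha7 in both lists. All mutants lay below all controls for 1 subunit, nAChRbeta3, in females (15.3% of all genes) and in males (15.9%).

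The genotype change was not shown to differ between the sexes for any subunit. The test of the difference called 0 of 10 (limma, 0.0187% of all genes), with 0 at an unadjusted p under 0.05. For nAChRbeta3 the female change minus the male one was −0.83 (SE 0.44, 95% interval −1.81 to 0.15, adjusted p = 1.00). For nAChRalpha5 the difference was −0.37 (SE 0.94, 95% interval −2.45 to 1.71), an interval wide enough to hold large differences either way.

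Between the sexes within a genotype, female minus male called 0 of 10 subunits in mutants (limma, 0.131% of all genes), with 0 at an unadjusted p under 0.05, and 0 of 10 in controls (0.281%), with 1 at an unadjusted p under 0.05. That 1 was nAChRbeta3, at 17.6 ± 5.50 FPKM in control females and 7.61 ± 1.06 FPKM in control males (SD), a difference of 1.08 (SE 0.31, adjusted p = 0.339 by limma). In mutants it was at 6.39 ± 3.07 FPKM in females and 4.93 ± 1.27 FPKM in males. All 3 control female libraries lay above all 3 control male libraries for this subunit. How many of all genes were apart in this way between the sexes was not counted, so this adds no support for a difference.

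Within each library, the summed FPKM of the 10 subunits was 496 to 603 in mutant female brains, against 276 to 438 in control female brains, and 557 to 648 in mutant male brains, against 183 to 490 in control male brains. The share of a subunit in this sum does not depend on how a library was scaled, but it moves with the levels of the other subunits. How often other genes would be apart on such a measure was not counted. The share of nAChRalpha5 was 6.97% to 10.4% in mutant females, against 1.88% to 5.13% in control females, and 8.64% to 10.9% in mutant males, against 1.38% to 5.84% in control males. Mutants and controls stayed apart in both sexes. The share of nAChRbeta3 was 0.587% to 1.92% in mutant females, against 3.38% to 8.68% in control females, and 0.606% to 1.14% in mutant males, against 1.36% to 4.06% in control males, again apart. The shares of nAChRalpha4 overlapped, at 21.0% to 32.1% in mutant females, against 18.2% to 31.2% in control females, and 23.6% to 27.7% in mutant males, against 6.49% to 36.4% in control males. For nAChRalpha4, nAChRalpha5 and nAChRbeta3 the mutant male shares had the narrowest range of the 4 groups. In males the nAChRalpha1 share was lower in mutants (3.20% to 3.50%) than in controls (3.63% to 5.25%), although its FPKM was higher. In females it overlapped. The nAChRalpha7 share was higher in mutant males (9.22% to 9.86%, against 3.81% to 9.04%) and overlapped in females. The nAChRalpha3 share was lower in mutant males (1.23% to 2.01%, against 2.32% to 9.08%) and overlapped in females. The remaining shares overlapped in both sexes.

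**Figure D3:**
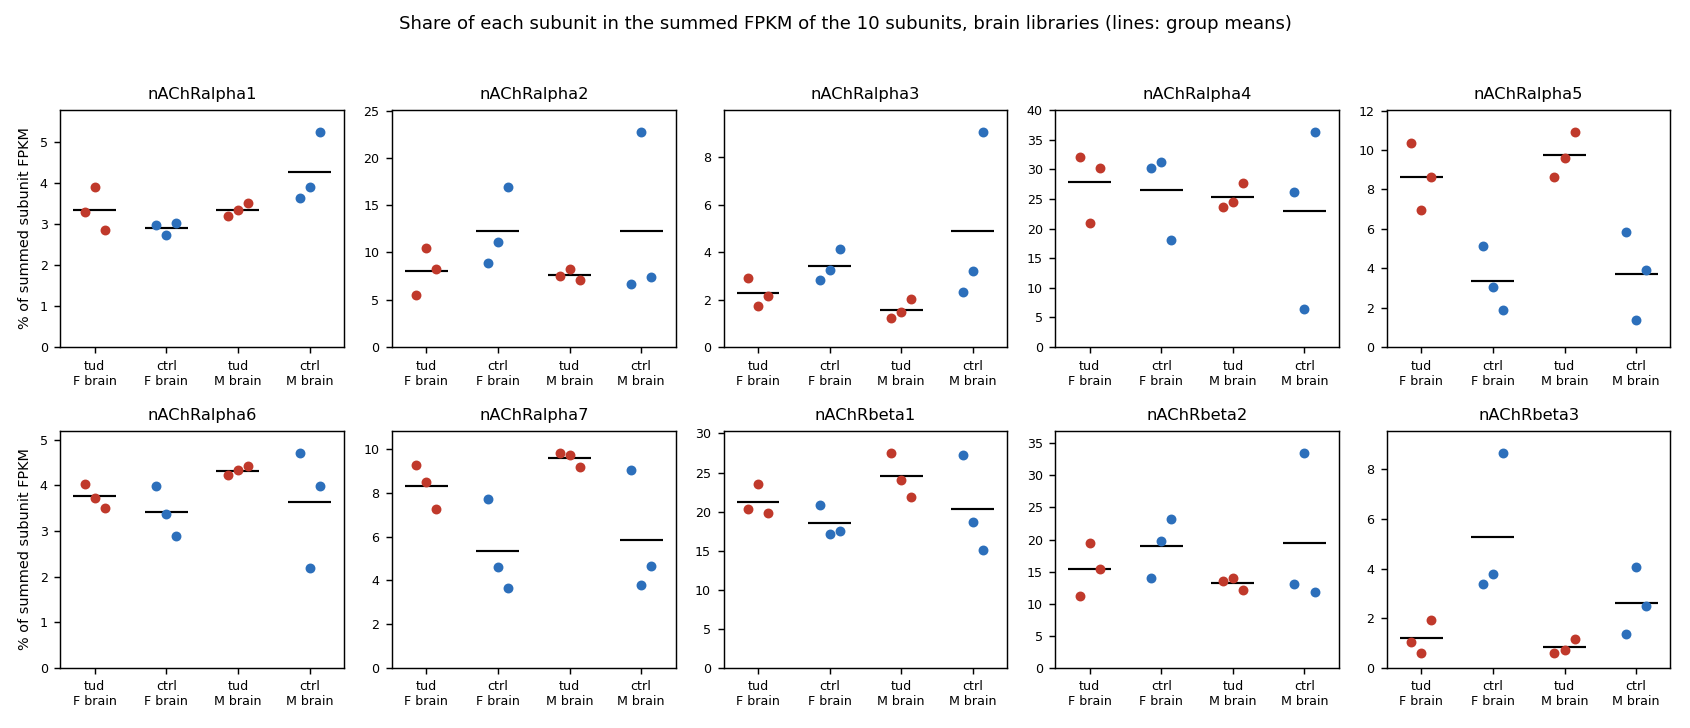
Share of each subunit in the summed FPKM of the 10 subunits (percent, vertical axis from 0, a scale of its own for each subunit) in the 12 brain libraries, *tud* mutant (red) left of control (blue) within each sex; points are libraries and lines are group means of 3. The nAChRalpha5 shares lie at 6.97% or more in mutants and at 5.84% or less in controls, and the nAChRbeta3 shares at 1.92% or less in mutant females and 3.38% or more in control females.

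The ovary had nearly 1 subunit. Values of nAChRalpha4 were 42.3, 30.7 and 32.6 FPKM in mutant ovaries, against 34.7, 37.3 and 41.4 FPKM in control ovaries. This was 98.4% to 99.2% of the summed subunit FPKM in mutants and 97.5% to 98.9% in controls. The groups overlapped, and the change was −0.11 (SE 0.13, 95% interval −0.41 to 0.19, adjusted p = 0.704 by limma). It was the only subunit above the mean of 1 FPKM asked of a tested gene in the ovary, so the test called 0 of 1 (4.09% of all genes), with 0 at an unadjusted p under 0.05.

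The other 9 subunits were low in ovary, at 0.398 FPKM or less in every library, but not all were near the detection limit. The highest of them in control ovaries, nAChRalpha6, was at 0.00628, 0 and 0.0105 FPKM in mutant ovaries, against 0.398, 0.331 and 0.179 FPKM in control ovaries, which is about 1.2, 0 and 2.1 fragments against about 65.5, 76.1 and 36.9 fragments. All 3 mutant libraries lay below all 3 controls, as for 8.90% of all genes listed above 0 in an ovary library. In contrast nAChRalpha5 was at 0.0105, 0.0600 and 0.0538 FPKM in mutant ovaries and 0, 0.00785 and 0.00411 FPKM in control ovaries, about 2.4 to 13.1 fragments and 0 to 2.2 fragments. Values of nAChRalpha3 were 0.179 to 0.223 FPKM in mutants and 0.121 to 0.176 FPKM in controls, about 43.9 to 60.8 fragments and 33.9 to 54.9 fragments. For these 2 all mutants lay above all controls, as for 11.4% of genes. These low values were below the filter of a mean of 1 FPKM, so the main ovary fit did not test them. A fit without the filter is given among the alternatives in the last section. An exact permutation test of 3 libraries against 3 cannot give a p below 0.1. The rest ranged from 0 to 0.278 FPKM with the genotypes overlapping, and nAChRalpha2 was listed at 0 in all 6 ovary libraries.

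Female brain was set against ovary within each genotype. All 10 subunits were higher in mutant female brain than in mutant ovary (43.4% of all genes) and in control female brain than in control ovary (44.3%), with 9 of them passing the filter through brain alone, so that these 9 had to differ. The subunit expressed in both, nAChRalpha4, was higher in brain by 2.09 in mutants (SE 0.31, adjusted p = 8.29e-05) and by 1.26 in controls (SE 0.31, adjusted p = 0.00320 by limma). Whether the genotype change differed between female brain and ovary was tested directly. Limma called 0 of 10 subunits (1.05% of all genes), with 6 at an unadjusted p under 0.05, and the lowest adjusted p was 0.111 for nAChRalpha5 (difference 1.94, SE 0.53). For the 9 subunits low in ovary the change there is kept small on this scale. For nAChRalpha5 the difference thus largely repeats the female brain change, which was 2.00. For nAChRalpha6 the ovary also entered. Its difference was 1.11 (SE 0.32, adjusted p = 0.127 by limma), its female brain change was 0.74 (SE 0.47), and its ovary values were lower in mutants. Without control female brain replicate 1, 4 of the 9 subunits low in ovary passed (nAChRalpha5, nAChRalpha6, nAChRalpha7 and nAChRbeta1), with 4.53% of all genes.

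Other genes of cholinergic transmission were measured beside the subunits. In brain 1 of the 3 genes for making, recycling and clearing acetylcholine passed the test. In the same comparison 14.2% of all genes tested rose and 10.8% fell. The choline transporter ChT averaged 58.3 ± 24.4 FPKM in mutant females and 28.6 ± 7.27 FPKM in control females, and 59.98 ± 7.82 FPKM in mutant males and 37.4 ± 8.004 FPKM in control males (SD, n = 3 each), a change of 0.82 (SE 0.20, adjusted p = 0.0224 by limma). The synthetic enzyme ChAT changed by 0.49 (SE 0.25, adjusted p = 0.157) and the acetylcholine-degrading enzyme Ace by −0.27 (SE 0.11, adjusted p = 0.0879), neither of which passed. Both tested muscarinic receptors, the G protein-coupled receptors for acetylcholine, rose, mAChR-B by 0.86 (adjusted p = 0.0194) and mAChR-A by 0.84 (adjusted p = 0.0401), and mAChR-C was below the filter.

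The counts in the next lists stand beside 14.2% of all genes tested that rose in brain and 10.8% that fell. Lists this small give a description and no test. Of 6 genes for cofactors that fold or modulate nicotinic receptors, 2 rose and 0 fell. They were RIC-3, a chaperone of receptor assembly, with a change of 0.80 (SE 0.18, adjusted p = 0.0190), and qvr, a Ly6-type membrane protein that modulates channels and sleep, with a change of 1.21 (SE 0.37, adjusted p = 0.0371 by limma). The list had a median of 0.43. Of 10 tested members of the wider Cys-loop family, to which the chloride channels gated by GABA, glutamate and histamine belong, 4 rose and 0 fell, with a median of 0.50. They were pHCl-1 (1.42, adjusted p = 0.0108), Lcch3 (0.81, adjusted p = 0.0460), CG8916 (0.74, adjusted p = 0.0231) and HisCl1 (0.51, adjusted p = 0.0426).

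Markers of cells moved in the same brain libraries, where 14.2% of all genes tested rose and 10.8% fell. Of 7 neuronal markers 3 rose (fne by 1.51, Syt1 by 1.42 and nSyb by 1.39), all 7 had a positive change, and the median was 0.84, close to the subunit median of 0.81. Their summed FPKM was 569.8 to 1060 in mutant females, against 287 to 539 in control females, and 722 to 834 in mutant males, against 319.8 to 615 in control males. In a bulk sample more neurons and more RNA per neuron cannot be told apart. Of 8 glial markers 2 rose and 2 fell (median 0.33), with sums of 3179 to 3474 FPKM in mutant females, against 2828 to 2996 in control females, and 3183 to 3513 FPKM in mutant males, against 3242 to 3438 in control males. Eye photoreceptor markers, which dissected brains should largely lack, summed to 2750 to 9393 FPKM in mutant females, against 2977 to 3351 in control females, and 4696 to 7093 FPKM in mutant males, against 2061 to 3205 in control males, and 7 of 10 rose (median 1.14). Of the 3 ovarian germline genes tested (gus, orb and bru1) 2 rose. The list summed to 155 to 248 FPKM in mutant females, against 97.4 to 140.5 in control females. In males it summed to 148 to 204 FPKM in mutants, against 58.2 to 143 in controls. Most of this sum was gus, at 120 to 208 FPKM in mutant female and 119 to 171 FPKM in mutant male brains. The members osk, bam and otu reached at most 0.735, 0.536 and 0.369 FPKM in a brain library, so the sum is no measure of germline tissue in brain. Of 5 haemocyte markers 1 fell, and 0 passed among 6 of muscle, 7 of fat body, 4 of gut and 3 of follicle cells. The part of these shifts in the subunit changes was not tested.

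Gene span also moved with the change. Among protein-coding genes tested in brain, 34.4% of the 896 that span 20 kb or more rose and 4.02% fell, with a median of 0.40, against 8.37% and 14.6% of the 6403 that span less than 5 kb, with a median of −0.06. Of the 2013 genes that span 5 to 20 kb, 23.6% rose and 5.51% fell, with a median of 0.22. Of the 6 subunit genes over 20 kb, nAChRalpha1, nAChRalpha5 and nAChRalpha7 rose, and nAChRalpha3, nAChRalpha4 and nAChRalpha6 did not pass. Between 5 and 20 kb, nAChRbeta1 rose, and nAChRalpha2 and nAChRbeta2 did not pass. The subunit nAChRbeta3, the one under 5 kb, fell. With the trend of each library on span removed, a choice made after seeing the data, 4 subunits still passed, as did 25.0% of all genes. They were nAChRalpha5, nAChRalpha7 and nAChRbeta1, which rose, and nAChRbeta3, which fell.

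**Figure D4:**
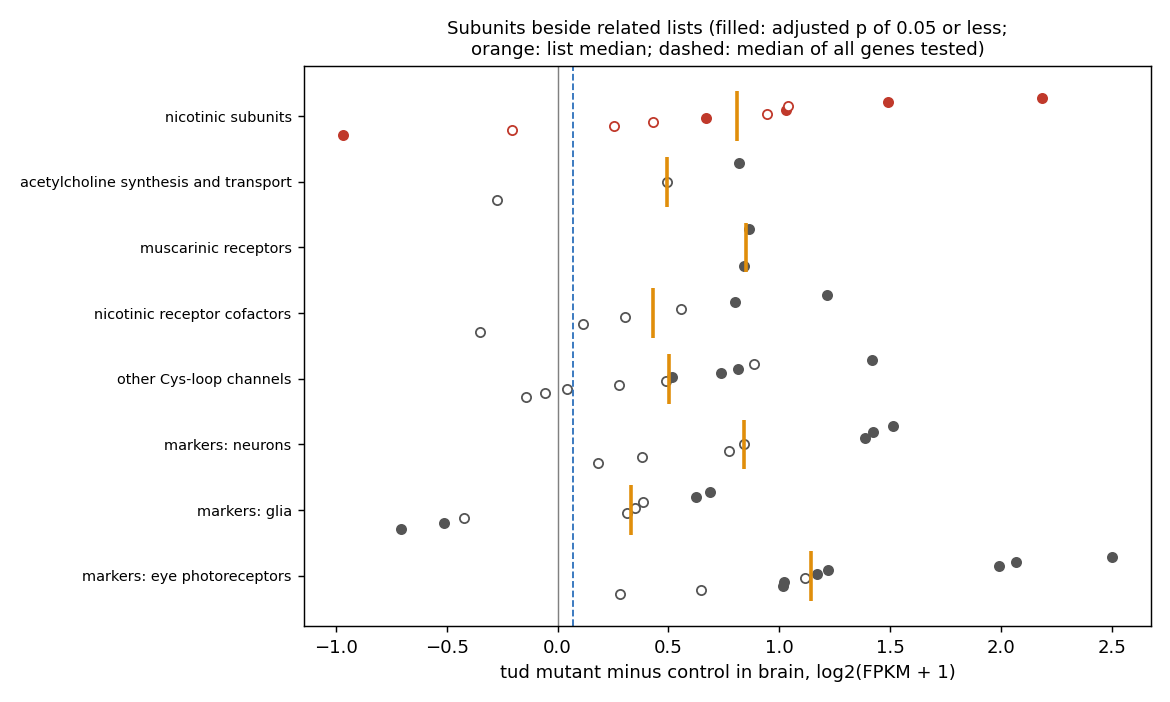
Genotype change in brain (*tud* mutant minus control, log2(FPKM + 1), horizontal axis) of each subunit (red, top row) and of each gene in the lists named on the vertical axis (grey); filled points have an adjusted p of 0.05 or less by limma, orange bars are list medians and the dashed line is the median of all genes tested. The subunit and neuronal medians lie at 0.81 and 0.84, against 0.07 for all genes.

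Across the 12 brain libraries the mean log2(FPKM + 1) of the 10 subunits was followed most closely by mura (Pearson r = 0.995), Sema1a (0.993), heph (0.993), Hr3 (0.991) and Frq1 (0.991). These are descriptions over libraries that share genotype, sex and preparation. With the 4 group means taken away, r for these 5 genes was 0.987 to 0.997. This r pooled all 4 groups and the same 12 libraries that picked the genes, so it is no separate support. The mean of the subunits spread most in control males (5.10, 3.62 and 4.75) and little in mutant males (5.35, 5.34 and 5.28). Likeness within a single group was not tested. Control male brain replicate 2 was the lowest of the 12 libraries for 7 of the 10 subunits.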

How the data were processed

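RNA-seq of hand-dissected brains and ovaries was analysed from the table the authors deposited, which holds 1 FPKM value per gene and library for 18 libraries. According to the labels and the study's methods, libraries were stranded total RNA with ribosomal RNA depleted and 5S rRNA and tRNA removed by size selection. The submitters' processing notes name FastQC 0.10.1, TopHat2 2.0.13, Cuffnorm 2.2.1, Cufflinks, CASAVA and the dm6 build. Whether libraries were scaled to each other is not stated, and their FPKM sums ranged from 742402 to 3411767, so a scaling error would move all subunits of a library together.

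Groups came from the labels. Values were taken as log2(FPKM + 1), which understates changes of low genes, and tested with limma 3.58.1 (R 4.3.3) with variances moderated along a trend on mean expression. Genes with a mean of at least 1 FPKM in a fit were tested, and those at or below 0.05 after Benjamini-Hochberg adjustment over all of them were called. The brain fit held 12 libraries in 4 groups, the ovary fit 6 libraries, and the tissue fit 6 female brain and 6 ovary libraries. All tests were two-sided. The comparisons of 1 fit share libraries. The fits were tested on simulated data. Depth was estimated from the steps of the 1000 lowest FPKM values of single-transcript genes in each library, of which 98.0% to 99.0% came within 0.1 of a whole fragment number. These depths and fragment numbers are approximate and carry no interval.

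Members were matched by symbol to the Ensembl release 115 annotation. Named genes were all 10 members, the genes of acetylcholine synthesis and transport, up to 4 called genes with the largest change in each other list, and the 5 genes most correlated with the mean of the members. Members and lists were chosen with earlier results of these data known. VAChT, para, wupA, nos and vas were not matched and are not analysed here. Alternatives were no filter, a filter at 5 FPKM, a pseudocount of 0.1, median-of-ratios and quantile scaling, no trend, protein-coding genes only, removal of the gene length or (chosen after seeing the data) gene span trend, the replicate number as a block, sex as an additive covariate, each sex alone, array weights by tissue, an adjusted p of 0.01, and each library left out in turn. Python 3.11.15, numpy 2.4.6, pandas 2.3.3 and matplotlib 3.10.9 were used.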

Additional observations from a re-analysis of the deposited data

Results flagged for a closer look

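The mutant libraries of nAChRalpha6 lay on opposite sides of the controls in male brain and in ovary. Its mean FPKM in mutant male brains was 1.91-fold that in control male brains. All 3 mutant libraries lay above all 3 controls there, as for 19.4% of all genes tested. In ovary it was 0.0185-fold the control mean. All 3 mutant libraries lay below all 3 controls, as for 8.90% of all genes listed above 0 in an ovary library. How many genes did both was not counted. In female brain the ratio was 1.66 and the groups overlapped. The male change did not pass (adjusted p = 0.121 by limma), the ovary values were below the filter, and the difference between male brain and ovary was not tested. In ovary the gene was at 0.398 FPKM or less in every library.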

How the results depend on the processing

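In brain, nAChRalpha5, nAChRalpha7 and nAChRbeta1 stayed higher and nAChRbeta3 lower in *tud* mutants, with adjusted p of 0.05 or less, under all alternatives that kept every library and this threshold. At an adjusted p of 0.01 limma called 0 subunits. nAChRalpha1 lost its call with a pseudocount of 0.1, without a filter, with median-of-ratios or quantile scaling, without the trend in moderation, with the length or span trend removed and with the replicate block, and nAChRalpha6 passed with protein-coding genes only (adjusted p = 0.0486), with sex as an additive covariate (0.0475) and with the replicate block (0.0462). With the replicate number as a block, 5 subunits passed in brain (25.9% of all genes). In female brain 1 passed (0.393% of all genes), nAChRbeta3 (adjusted p = 0.0341 by limma). Nothing in the labels says what a number shares. In their deviations 9 of 18 same-numbered brain pairs (median r 0.0994) and 6 of 36 others (median −0.0439) correlated above 0.1. These values do not settle whether same-numbered libraries shared a preparation. The main fit did not take the numbers as pairs because the labels do not give them as such. Without a filter, 1 subunit passed in ovary (2.43% of all genes), nAChRalpha6 with a change of −0.37 (adjusted p = 0.0497 by limma). With a pseudocount of 0.1, nAChRalpha6 also passed in the comparison of the genotype change between female brain and ovary (adjusted p = 0.0205 by limma). Leaving out 1 library moved the number of subunits called between 0 and 7 in brain, 0 and 4 in male brain, and 0 and 4 for the genotype change in female brain minus ovary, and the change of nAChRalpha3 in brain between −0.46, with control male brain replicate 2 left out, and 0.10, a reversed sign, when replicate 3 of that group was left out. It left 0 in female brain, 0 in ovary, 0 for each comparison of the sexes and 10 for female brain against ovary in each genotype. Of these 10, 9 passed the filter through brain alone and had to differ, so this stability adds nothing for them. With the span trend removed, 9 of 10 subunits passed between mutant female brain and mutant ovary. Why these values moved was not tested. Most of the low ovary FPKM rest on few fragments, and 3 libraries per group limit the precision throughout.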
